A study of Mus musculus with 10 samples.

Results

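The inhibitory immune receptors are surface proteins that hold immune cells in check. Described here are 9 genes grouped under that name (Cd200r1, Cd200r4, Btla, Sirpa, Lilrb4a, Pirb, Lair1, Havcr2 and Vsir), among 55487 genes measured in mouse retinal microglia. They include Cd200r4, which in the mouse encodes an activating relative. They were chosen by name. Btla and Cd200r4 were included because they had been seen to differ between these groups, so their values are given as a description with no test, and the other 7 genes were tested. All 9 passed the filter on low counts that left 18957 genes.

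RNA was sequenced from 3 groups of mice: 4 animals taken 8 weeks after streptozotocin (8wk STZ), 3 animals taken 4 weeks after it (4wk STZ) and 3 littermate controls (Control). Streptozotocin kills insulin-producing beta cells and so makes mice diabetic. All animals, controls included, were Cx3cr1GFP/+, with GFP in place of one copy of the fractalkine receptor gene Cx3cr1, and viable GFP-positive cells from both retinas of each animal were sorted together. That reporter marks microglia and also other myeloid cells, and the labels give no age for the controls and no library batch.

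The sort was rich in microglial RNA. The 13 microglial markers, among them Csf1r and P2ry12, summed to 33960 to 37410 CPM (reads scaled to a common library size with TMM factors) in 8wk STZ, 38690 to 42580 CPM in 4wk STZ, against 43020 to 48080 CPM in Control. Of these 13, 5 were called lower (adjusted p below 0.05) and 1 higher in 8wk STZ than in Control, beside 2.37% of all genes called in either direction. In that comparison 11 of the 13 had a log2 fold change below 0 (median -0.344). Of the rod photoreceptor markers 16 of 16 were called lower, beside the same 2.37%. They summed to 4814 to 6087 CPM in 8wk STZ, 7345 to 10700 CPM in 4wk STZ, against 13420 to 14980 CPM in Control. Of 12 markers of Müller glia and astrocytes, 3 were called lower in 8wk STZ than in Control, again beside 2.37% of all genes. A log2 fold change below 0 was seen for 11 of the 12 (median -0.71), the exception being Apoe. The share of reads from mitochondrial genes was 0.926% to 1.35% in 8wk STZ, 1.82% to 2.63% in 4wk STZ and 1.84% to 2.13% in Control. Libraries held 46143178 to 62903489 reads in 8wk STZ, 33266838 to 49051036 in 4wk STZ and 45656309 to 54312248 in Control. Control 3 and 4wk STZ 3 stood apart from the other libraries on the first principal components. For Cd200r4, Btla, Vsir, Havcr2 and Pirb, differences from Control are also given without them. The part of rod RNA, glial RNA, mitochondrial share or these libraries in the receptor values was not tested.

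Most inhibitory receptors carry short tyrosine motifs (ITIMs) in their tails. When the ligand binds, Src-family kinases phosphorylate the motif, and it recruits the phosphatases SHP-1, SHP-2 or SHIP-1, which quench nearby activating signals. Microglia use several of them to read neighbours as healthy: neurons show CD200 and CD47, which engage CD200R1 and SIRPα. Many belong to paired families, in which an inhibitory member has an activating relative with a similar outer part that signals through the adaptors DAP12 (gene Tyrobp) or FcRγ (gene Fcer1g).

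The 9 genes differed widely in level. Per kilobase of exon, Vsir was the most abundant, at a mean of 352 CPM per kb over the 10 libraries, followed by Sirpa at 206.7, Lair1 at 168.5 and Havcr2 at 133.4 CPM per kb. Pirb stood at 11.88 CPM per kb and Cd200r1 at 4.43 CPM per kb. Cd200r4, Btla and Lilrb4a were the scarcest, at 2.10, 1.11 and 0.622 CPM per kb. Of the 50-base stretches of Lilrb4a and Pirb transcripts, 47.2% and 34% also occur in other genes. Reads of these 2 genes may therefore be split, which makes their levels per kb, and the place of Lilrb4a below Btla, less certain. Vsir, with 316 to 405.1 CPM per kb across libraries, overlapped no other member, and neither did Pirb, with 7.82 to 14.4 CPM per kb. Neighbours in the order from Sirpa to Lair1 to Havcr2 overlapped, as did neighbours from Cd200r1 down to Lilrb4a. Summed over the 9 genes, the level was 4365 to 4486 CPM in 8wk STZ, 4054 to 4739 CPM in 4wk STZ, against 4530 to 4803 CPM in Control, and Vsir, Lair1 and Sirpa gave 88.5% to 92.8% of it in every library.

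**Figure D1:**
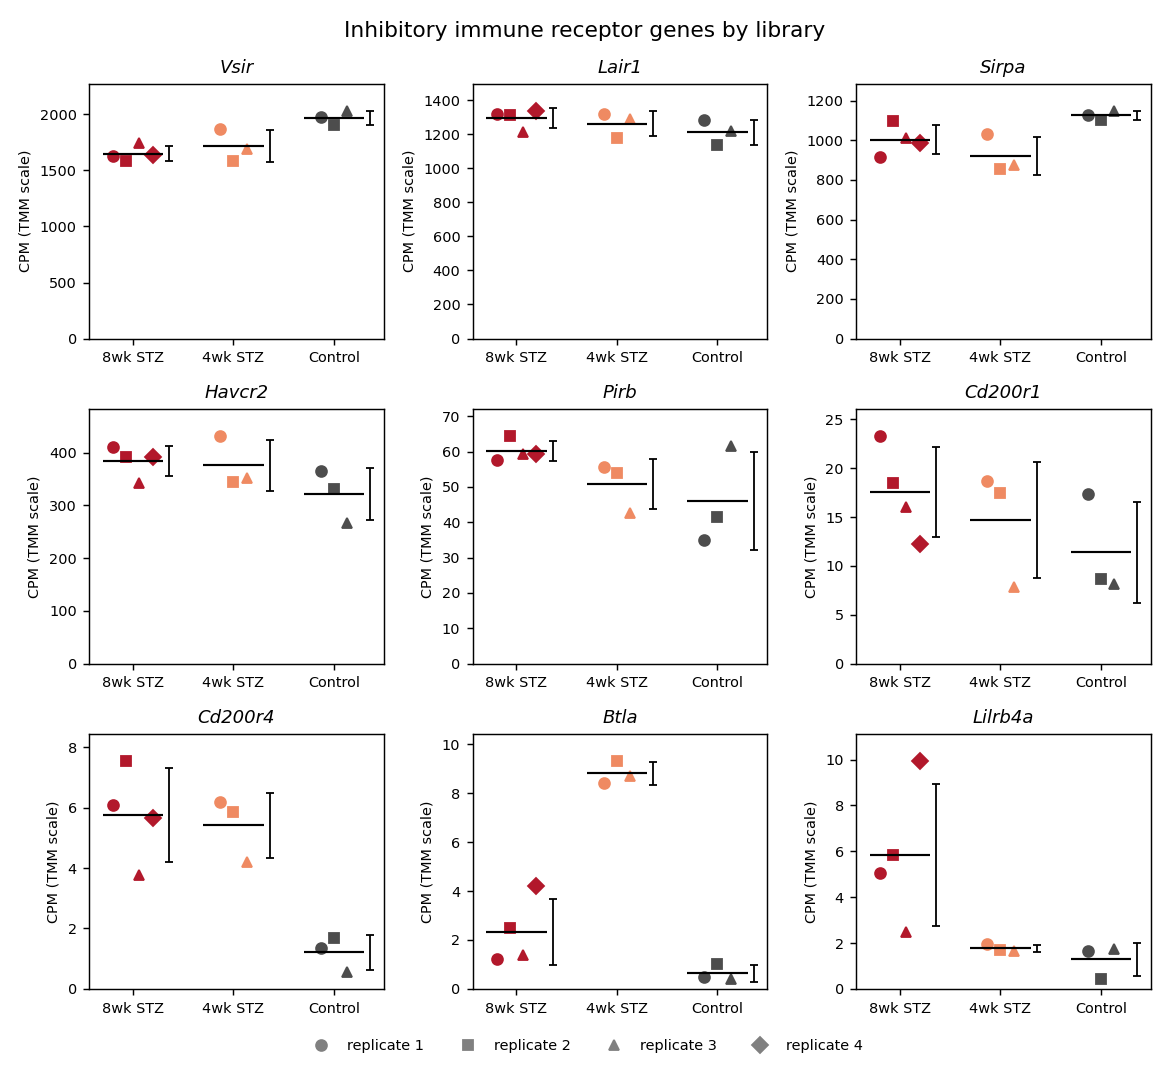
Level of each of the 9 receptor genes (CPM on the TMM scale, y axis from 0) in every library of 8wk STZ (n = 4), 4wk STZ (n = 3) and Control (n = 3). Points are libraries, shaped by replicate number, the horizontal line is the group mean and the bar beside it ± 1 SD. Btla stood highest in 4wk STZ, Cd200r4 was above Control in all 7 STZ libraries, and Lilrb4a was above the other groups in the 4 libraries of 8wk STZ.

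None of the 7 tested receptors reached an adjusted p below 0.05 in any comparison, which is the threshold for a call. At 8 weeks against Control 0 of 7 were called, beside 2.37% of all 18957 genes, and 2 of 7 had an unadjusted p below 0.05, beside 15.7% of all genes. The groups did not overlap for 3 of the 7, beside 16.9% of all genes: Lilrb4a was higher, as were 8.91% of all genes, and Vsir and Sirpa were lower, as were 7.99%. In 4wk STZ against Control 0 of 7 were called, beside 0% of all genes, 2 had an unadjusted p below 0.05, beside 9.75% (1849 genes), and 2 (Vsir and Sirpa) did not overlap, beside 12.3% of all genes. Both were lower, as were 6.25% of all genes. Between 8wk STZ and 4wk STZ 0 of 7 were called, beside 0.918%, 1 had an unadjusted p below 0.05, beside 13.7%, and 2 (Lilrb4a and Pirb) did not overlap, beside 15.4%. Both were higher, as were 8.39% of all genes. The median log2 fold change of the 7 was 0.26 in 8wk STZ against Control, 0.14 in 4wk STZ against Control and 0.13 in 8wk STZ against 4wk STZ, where the median over all genes was -0.01, 0.00 and 0.00. Both STZ groups were set against the same 3 Control libraries. Other tools called up to 2 of the 7: DESeq2 called Lilrb4a (adjusted p = 0.00328) and Vsir (adjusted p = 0.0167) in 8wk STZ against Control. It called 1451 of all genes in that comparison, where the quasi-likelihood test called 449. No tool called any of them in 4wk STZ against Control.

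**Figure D2:**
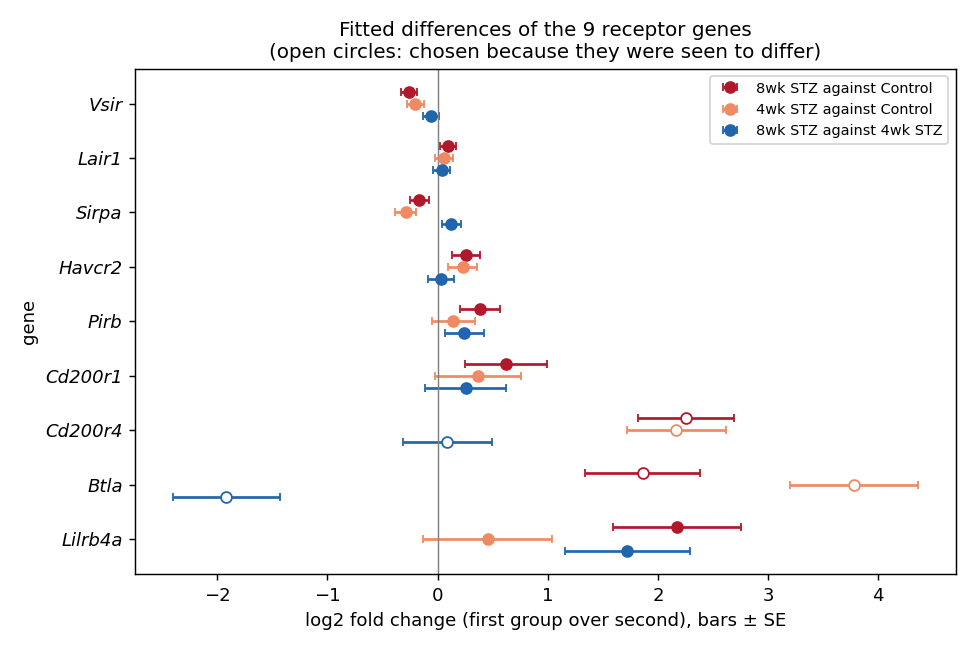
Fitted log2 fold change (x axis, first group over second, bars ± SE) of each receptor gene in the 3 comparisons, genes ordered from the most to the least abundant CPM. Open circles are Btla and Cd200r4, which were chosen because they differed. Vsir and Sirpa lie left of 0 in both comparisons with Control, and Lilrb4a lies to the right at 8 weeks with a log2 fold change of 2.17.

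The CD200 receptors sit side by side on chromosome 16, with Cd200r1 (chr16:44765736-44794978, GRCm38, plus strand) starting 46 kb before Cd200r4 (chr16:44811733-44839150, plus strand). Cd200r1 encodes the receptor for CD200 and inhibits through the adaptor Dok2 and RasGAP in place of a classical ITIM. It stood at 23.3, 18.5, 16.04 and 12.3 CPM in 8wk STZ, at 18.7, 17.5 and 7.84 CPM in 4wk STZ and at 17.4, 8.66 and 8.17 CPM in Control. The groups overlapped, with 4wk STZ 3 the lowest of all and Control 1 among the STZ values. The log2 fold change was 0.62 ± 0.37 (SE) in 8wk STZ against Control (adjusted p = 0.486) and 0.37 ± 0.391 in 4wk STZ against Control (adjusted p = 0.852). With single libraries left out, these ran from 0.431 to 1.056 and from 0.154 to 0.8.

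Cd200r4, counted among the inhibitory receptors by its family name, encodes in the mouse an activating relative that lacks the inhibitory tail and pairs with DAP12. It stood at 6.08, 7.54, 3.76 and 5.66 CPM in 8wk STZ, at 6.19, 5.84 and 4.199 CPM in 4wk STZ and at 1.36, 1.69 and 0.564 CPM in Control. Every STZ library was above every Control library, and the STZ groups overlapped. The means were 5.76 ± 1.56 CPM in 8wk STZ (SD, n = 4), 5.41 ± 1.06 CPM in 4wk STZ (SD, n = 3) and 1.21 ± 0.578 CPM in Control (SD, n = 3). That is a log2 fold change of 2.26 ± 0.437 (SE) in 8wk STZ and 2.17 ± 0.451 in 4wk STZ against Control, and of 0.09 ± 0.401 in 8wk STZ against 4wk STZ. Without Control 3 and 4wk STZ 3 the differences from Control were 1.92 in 8wk STZ and 1.98 in 4wk STZ. In bulk RNA, more cells that carry a transcript and more of that transcript per cell cannot be told apart, here and for every gene below.

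Within the pair, the CPM of Cd200r4 divided by that of Cd200r1, with no correction for length, was 0.234 to 0.460 in 8wk STZ, 0.331 to 0.536 in 4wk STZ and 0.069 to 0.195 in Control. The ratio was higher in every STZ library than in any Control library. Because Cd200r4 was chosen for its difference and Cd200r1 overlapped between groups, the ratio restates that difference and is a description. The genes share little sequence: 4.94% of the 50-base stretches of Cd200r4 transcripts also occur in another gene. The other activating relatives, Cd200r2 and Cd200r3, had 7 reads each over all 10 libraries.

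Btla (chr16:45224315-45257670, plus strand) encodes the B and T lymphocyte attenuator, an ITIM receptor best known from lymphocytes and dendritic cells that binds the TNF receptor family member HVEM (gene Tnfrsf14). It stood at 1.24, 2.49, 1.39 and 4.197 CPM in 8wk STZ, at 8.41, 9.30 and 8.71 CPM in 4wk STZ and at 0.498, 1.04 and 0.389 CPM in Control. The 3 groups did not overlap: 4wk STZ was highest and tight, 8wk STZ lay between with 8wk STZ 4 the highest of its 4, and Control was lowest. The counts behind these values were 70 to 250 reads per library in 8wk STZ, 280 to 449 in 4wk STZ and 20 to 46 in Control. The means were 2.33 ± 1.36 CPM in 8wk STZ (SD, n = 4), 8.81 ± 0.455 CPM in 4wk STZ (SD, n = 3) and 0.641 ± 0.346 CPM in Control (SD, n = 3). The log2 fold change was 3.78 ± 0.584 (SE) in 4wk STZ and 1.86 ± 0.525 in 8wk STZ against Control, and -1.92 ± 0.487 in 8wk STZ against 4wk STZ. Without Control 3 and 4wk STZ 3 these were 3.53, 1.60 and -1.93. None of the 50-base stretches of Btla transcripts occurs in another gene.

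Markers of the lymphoid and dendritic cells in which Btla is best known were measured in the same libraries. The 10 B cell markers summed to 926.8 to 1056 CPM in 8wk STZ, 905.2 to 1036 CPM in 4wk STZ, against 793.3 to 971.7 CPM in Control. Most of that sum was Ighm, the heavy chain of IgM, at means of 899, 868 and 783 CPM in 8wk STZ, 4wk STZ and Control, while Pax5, Fcmr and Blk had at most 10 reads in any library and Fcmr had 0. Cd79a, a chain of the B cell receptor, stood at 0.492, 0.321, 0.517 and 0.437 CPM in 8wk STZ, at 1.41, 0.352 and 1.03 CPM in 4wk STZ and at 0.238, 0.0675 and 0.0389 CPM in Control. All 7 STZ libraries were above Control for Cd79a, with 4wk STZ 1 and 4wk STZ 3 the highest, on 2 to 68 reads per library. Its partner chain Cd79b, at 30.3 to 53.9 CPM in 8wk STZ, 40.4 to 58.0 CPM in 4wk STZ, against 40.6 to 45.8 CPM in Control, overlapped between groups, and both were picked after their values were seen. The 10 dendritic cell markers summed to 87.2 to 121.4 CPM in 8wk STZ, 91.8 to 108.3 CPM in 4wk STZ, against 82.4 to 124.9 CPM in Control, with Ccr7 and Ccl17 at 10 reads or fewer in every library. Among them the transcription factor Batf3 was called higher in 8wk STZ than in Control (log2 fold change 0.83, adjusted p = 0.0461). The 14 T and NK cell markers summed to 9.28, 7.195, 2.21 and 37.3 CPM in 8wk STZ, 8.58 to 14.0 CPM in 4wk STZ, against 3.04 to 19.6 CPM in Control. Within 8wk STZ the highest library, 8wk STZ 4, was the same as for Btla, and the lowest was not. The sums of 4wk STZ, the group where Btla was highest, lay within the ranges of both other groups. For all 3 sums the groups overlapped. The part of these cells in the Btla values was not tested.

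The start regions of Btla and Cd200r4 are shown because these genes stood furthest above Control at 4 weeks, and that of Lair1 because it is an abundant member whose groups overlapped. Each runs from 250 bases before to 50 after the RefSeq start on GRCm38.p6, 5′ to 3′ on the gene's strand: chr16:45224087-45224386 (plus) for Btla, chr16:44820478-44820777 (plus) for Cd200r4 and chr7:4063155-4063454 (minus) for Lair1. Capitals mark GAGGAAG, the core bound by the myeloid factor PU.1, on either strand (of the motifs searched, no other was found in these 3).
Btla: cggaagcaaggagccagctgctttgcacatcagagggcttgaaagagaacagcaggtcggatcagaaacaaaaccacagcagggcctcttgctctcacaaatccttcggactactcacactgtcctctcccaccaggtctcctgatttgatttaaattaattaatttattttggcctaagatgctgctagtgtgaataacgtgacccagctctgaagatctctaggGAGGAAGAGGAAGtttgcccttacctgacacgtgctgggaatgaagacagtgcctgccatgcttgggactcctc
Cd200r4: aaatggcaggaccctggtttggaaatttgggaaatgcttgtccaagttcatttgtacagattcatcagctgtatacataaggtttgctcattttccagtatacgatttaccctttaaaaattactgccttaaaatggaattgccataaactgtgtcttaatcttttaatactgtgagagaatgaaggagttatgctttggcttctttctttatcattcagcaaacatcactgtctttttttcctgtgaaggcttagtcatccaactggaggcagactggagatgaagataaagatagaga
Lair1: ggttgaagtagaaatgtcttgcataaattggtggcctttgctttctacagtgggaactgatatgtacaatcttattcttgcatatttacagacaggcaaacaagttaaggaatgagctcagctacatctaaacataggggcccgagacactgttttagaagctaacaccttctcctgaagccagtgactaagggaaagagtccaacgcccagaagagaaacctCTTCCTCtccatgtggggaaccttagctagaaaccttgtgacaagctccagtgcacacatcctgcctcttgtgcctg
Btla holds 2 copies of GAGGAAG that share a base, starting 24 and 18 bases before its start site, Lair1 holds 1 on the opposite strand 27 bases before it, and Cd200r4 holds none. The RefSeq start of Cd200r4 lies inside the gene as GENCODE draws it. Across 32851 mouse promoters of the same length, 13.6% hold this motif on either strand. Of the 6 members with an entry, Pirb and Havcr2 also hold 1 copy each and Vsir holds none, and Cd200r1, Sirpa and Lilrb4a have no entry. The AP-1 motif TGANTCA, also searched on both strands, is in 7.81% of promoters and, among the 6, in Havcr2 only. A match is a stretch of letters, not a measured binding site.

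Other genes near Btla and Cd200r4 were measured as well. The annotation places 30 genes with a start within 500 kb of either, of which 11 passed the filter. Of these, edgeR called 0 of 11 in any comparison. Over all genes the called share was 2.37% at 8 weeks, 0% at 4 weeks and 0.918% between the STZ groups. In each comparison 1 of the 11 had an unadjusted p below 0.05, beside 15.7%, 9.75% and 13.7% of all genes. Btla and Cd200r4 were not tested, so these counts do not set them apart from the genes around them. The smallest adjusted p of the 11 was 0.307 in 8wk STZ against Control and 0.40 in 4wk STZ against Control. Slc35a5, a solute carrier gene, averaged 63.2 ± 10.3 CPM in 8wk STZ, 79.2 ± 0.931 CPM in 4wk STZ, against 77.7 ± 7.497 CPM in Control (SD, n = 4, 3 and 3). Atg3, an autophagy enzyme gene, averaged 34.7 ± 2.24 CPM in 8wk STZ, 26.5 ± 7.25 CPM in 4wk STZ, against 34.3 ± 6.12 CPM in Control (SD, n = 4, 3 and 3). Gtpbp8 averaged 19.9 ± 2.42 CPM in 8wk STZ, 22.2 ± 3.96 CPM in 4wk STZ, against 23.2 ± 2.22 CPM in Control (SD, n = 4, 3 and 3). Cd200, the ligand gene, starts 157.8 kb beyond the start of Btla and is described with the ligands.

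**Figure D3:**
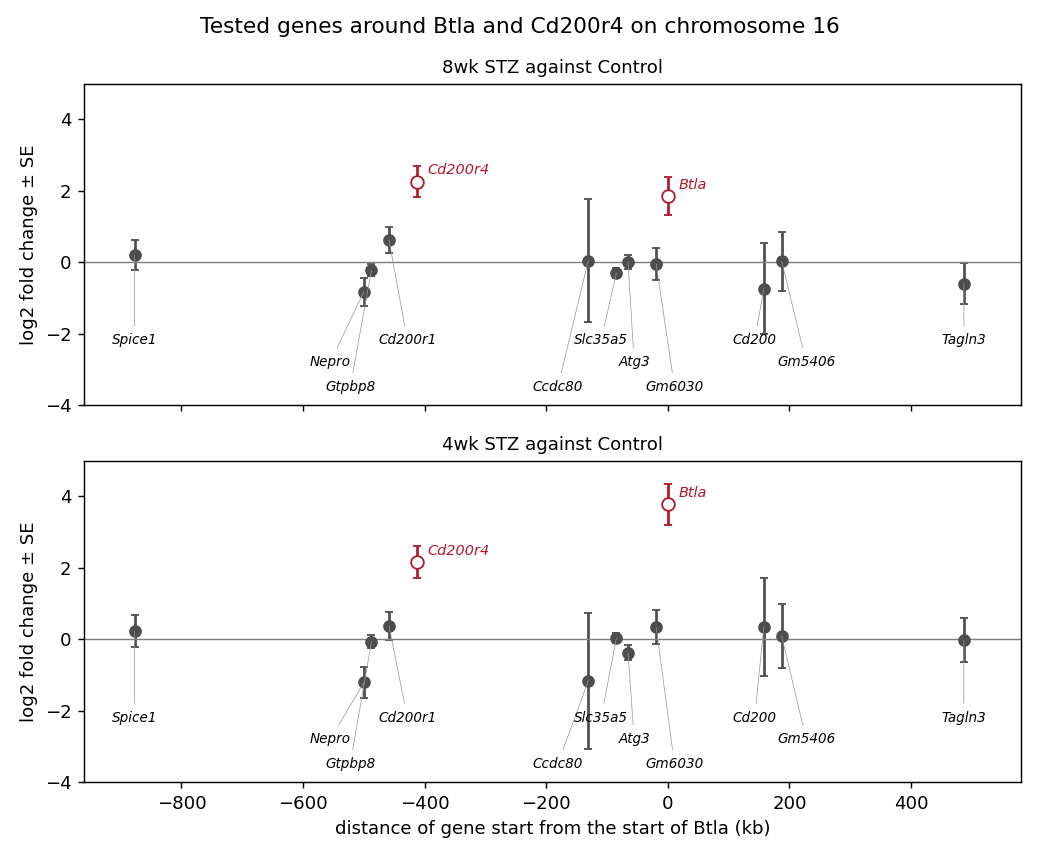
Log2 fold change (y axis, bars ± SE) of the tested genes around Btla and Cd200r4, by the distance of each gene's start from that of Btla (x axis, kb), for 8wk STZ against Control (top) and 4wk STZ against Control (bottom). Open red circles are the 2 receptors and grey points the 11 other genes. The receptors, chosen because they were seen to differ and not tested, lie between 1.86 and 3.78 above 0. Of the 11 neighbours 0 were called, beside 2.37% of all genes at 8 weeks and 0% at 4 weeks.

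The genes whose levels across the 10 libraries were most like those of each receptor were found by the root mean square difference of centred log2 CPM over 9376 genes. For Btla they were Prdm10 (1.01 log2 units), Sepsecs (1.05) and Capn1 (1.06), where the median gene was at 1.61. Prdm10 averaged 4.19 ± 0.754 CPM in 8wk STZ, 6.93 ± 0.861 CPM in 4wk STZ, against 2.33 ± 0.707 CPM in Control (SD, n = 4, 3 and 3). For Cd200r4 they were Ppfibp1 (0.495 log2 units), Incenp (0.524) and Sh2d6 (0.608), where the median gene was at 1.17. Ppfibp1 averaged 6.80 ± 1.43 CPM in 8wk STZ, 5.00 ± 1.05 CPM in 4wk STZ, against 2.12 ± 1.32 CPM in Control (SD, n = 4, 3 and 3). For 1 receptor, a smaller difference means a closer pattern. The measure grows with a receptor's own range, and the median gene was also farther from Btla, so distances are not compared between receptors. These companions were picked for likeness to genes chosen for a difference, so their group means are a description.

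Vsir (chr10:60346851-60372684, plus strand) encodes VISTA, a checkpoint receptor and ligand of myeloid and T cells, and is the most abundant member. It stood at 1628, 1584, 1741 and 1640 CPM in 8wk STZ, at 1868, 1587 and 1690 CPM in 4wk STZ and at 1973, 1908 and 2031 CPM in Control. All 7 STZ libraries were below all 3 Control libraries, and the STZ groups overlapped. The log2 fold change was -0.26 ± 0.074 (SE) in 8wk STZ against Control (unadjusted p = 0.00507, adjusted p = 0.103) and -0.20 ± 0.0794 in 4wk STZ against Control (adjusted p = 0.467). It did not pass with edgeR's quasi-likelihood test, passed with limma-voom (adjusted p = 0.0443) and DESeq2, and had an FDR of 0.116 in the authors' deposited table. Without Control 3 and 4wk STZ 3 the difference at 8 weeks was -0.24 (adjusted p = 0.27).

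Sirpa (chr2:129592835-129632228, plus strand) encodes SIRPα, the CD47 receptor whose ITIMs restrain phagocytosis. It stood at 918, 1096, 1014 and 985 CPM in 8wk STZ, at 1031, 854 and 874 CPM in 4wk STZ and at 1128, 1101 and 1148 CPM in Control. The Control libraries lay above all STZ libraries, with 8wk STZ 2 just below the lowest of them. Its fitted log2 fold change was -0.17 ± 0.0874 (SE) in 8wk STZ against Control (adjusted p = 0.413) and -0.29 ± 0.0938 in 4wk STZ against Control (unadjusted p = 0.0102, adjusted p = 0.361). Among Control libraries Sirpa and Vsir were the steadiest of the 9 genes, with coefficients of variation of 2.09% and 3.14%.

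Lair1 (chr7:4003402-4063204, minus strand) encodes an ITIM receptor for collagens and complement C1q. It stood at 1316, 1314, 1210 and 1336 CPM in 8wk STZ, at 1317, 1178 and 1288 CPM in 4wk STZ and at 1280, 1136 and 1217 CPM in Control. The 3 groups overlapped. Its log2 fold change was 0.10 ± 0.0749 (SE) in 8wk STZ against Control (adjusted p = 0.643) and 0.06 ± 0.0799 in 4wk STZ against Control (adjusted p = 0.897).

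Havcr2 (chr11:46454935-46481255, plus strand) encodes TIM-3, which carries tyrosines but no classical ITIM and binds galectin-9, HMGB1 and CEACAM1. It stood at 410, 392.5, 342.9 and 391.9 CPM in 8wk STZ, at 431.5, 345.4 and 351.8 CPM in 4wk STZ and at 365.3, 331.6 and 267.4 CPM in Control. The groups overlapped, and the lowest value was Control 3. In the fit it differed by a log2 fold change of 0.26 ± 0.123 (SE) in 8wk STZ against Control (adjusted p = 0.351) and 0.23 ± 0.131 in 4wk STZ against Control (adjusted p = 0.634). Without Control 3 and 4wk STZ 3 these were 0.14 and 0.16.

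Pirb (chr7:3711409-3720391, minus strand) encodes an ITIM receptor for MHC class I that also binds the myelin proteins Nogo, MAG and OMgp. It stood at 57.5, 64.4, 59.4 and 59.3 CPM in 8wk STZ, at 55.7, 54.0 and 42.6 CPM in 4wk STZ and at 34.95, 41.6 and 61.5 CPM in Control. The libraries of 8wk STZ were all above those of 4wk STZ, and Control spread across both, with Control 1 the lowest of all and Control 3 within the 8wk STZ range. Its fitted log2 fold change was 0.39 ± 0.181 (SE) in 8wk STZ against Control (adjusted p = 0.34) and 0.14 ± 0.193 in 4wk STZ against Control (adjusted p = 0.895). Without Control 3 and 4wk STZ 3 it was 0.65 ± 0.127 at 8 weeks (adjusted p = 0.045) and 0.52 ± 0.143 at 4 weeks (adjusted p = 0.345). With single libraries left out it ran from 0.22 to 0.654 at 8 weeks and from -0.025 to 0.408 at 4 weeks. 4wk STZ 3 belongs to neither group of the 8-week comparison, so of these libraries the 8-week fold change rests on Control 3.

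Reads of Pirb may be shared with its activating relatives, the Pira genes: 34% of the 50-base stretches of its transcripts occur in other genes, among them Gm14548 (17.7%), Pira2 (16.8%), Lilra6 (15.0%) and Gm15922 (13.2%). Those genes had far fewer reads. Pira2 averaged 1.02 ± 0.750 CPM in 8wk STZ, 1.03 ± 0.715 CPM in 4wk STZ, against 0.383 ± 0.606 CPM in Control (SD, n = 4, 3 and 3). Gm15922 stood at 1.46, 1.40, 1.65 and 0.957 CPM in 8wk STZ, at 2.74, 1.202 and 2.12 CPM in 4wk STZ and at 0.238, 0.315 and 0.273 CPM in Control. All 7 STZ libraries were above Control for Gm15922, which was chosen after its values were seen, and it was not called (adjusted p = 0.0587 in 8wk STZ and 0.241 in 4wk STZ against Control). How reads that match several of these genes were counted is not given in the sources used here.

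Lilrb4a (chr10:51490956-51496611, plus strand) encodes gp49B, an ITIM receptor of myeloid and mast cells, and had the largest log2 fold change of the 7 tested receptors at 8 weeks. It stood at 5.06, 5.85, 2.49 and 9.92 CPM in 8wk STZ, at 1.95, 1.70 and 1.65 CPM in 4wk STZ and at 1.67, 0.45 and 1.75 CPM in Control. All 4 libraries of 8wk STZ were above all others, with 8wk STZ 4 the highest and 8wk STZ 3 the nearest, while 4wk STZ and Control overlapped. The counts were 125 to 591 reads per library in 8wk STZ, 53 to 94 in 4wk STZ and 20 to 90 in Control. The means were 5.83 ± 3.08 CPM in 8wk STZ (SD, n = 4), 1.77 ± 0.163 CPM in 4wk STZ (SD, n = 3) and 1.29 ± 0.728 CPM in Control (SD, n = 3).

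The log2 fold change of Lilrb4a was 2.17 ± 0.58 (SE) in 8wk STZ against Control (unadjusted p = 0.00334, adjusted p = 0.0834), 1.72 ± 0.57 in 8wk STZ against 4wk STZ (adjusted p = 0.205) and 0.45 ± 0.583 in 4wk STZ against Control (adjusted p = 0.888). It did not pass the quasi-likelihood test, whereas edgeR's likelihood ratio test (adjusted p = 0.0138) and DESeq2 called it at 8 weeks. Both of these also called more of all genes than the quasi-likelihood test did. The authors' deposited table gives Lilrb4a an FDR of 0.0116 at 8 weeks, where 1055 of its 14475 genes had an FDR below 0.05. When single libraries were left out, the adjusted p at 8 weeks ran from 0.0753 to 0.209.

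Lilrb4a and its paralog Lilr4b, which encodes gp49A and lacks the inhibitory motif, are hard to tell apart by short reads. Of the 50-base stretches of Lilrb4a transcripts 47.2% occur in other genes, 26.1% in Lilr4b and 33.7% in the overlapping gene model Gm49339, which held 6 reads in all. Lilr4b stood at 8.36, 7.496, 5.01 and 16.8 CPM in 8wk STZ, at 5.52, 2.90 and 4.82 CPM in 4wk STZ and at 2.90, 3.06 and 4.07 CPM in Control. The 8wk STZ libraries were again above Control, with 8wk STZ 4 the highest and 8wk STZ 3 the lowest of the 4, and 8wk STZ 3 fell among the 4wk STZ values. The log2 fold change of Lilr4b was 1.49 ± 0.425 (SE) in 8wk STZ against Control (adjusted p = 0.102). With the reads of both genes summed, a choice made after seeing the data, it was 1.72 ± 0.409 (adjusted p = 0.0564), and the summed levels were 13.4, 13.4, 7.502 and 26.7 CPM in 8wk STZ, 7.476, 4.6 and 6.47 CPM in 4wk STZ and 4.56, 3.51 and 5.82 CPM in Control.

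Markers of border macrophages, the other macrophages a Cx3cr1 reporter can bring, varied widely between libraries of each group. The 8 markers summed to 593.6, 310.1, 164.5 and 785.0 CPM in 8wk STZ, to 317.5, 546.4 and 261.2 CPM in 4wk STZ and to 596.3, 289.7 and 466.6 CPM in Control. Within 8wk STZ the highest and lowest libraries were the same as for Lilrb4a and Lilr4b. The 3 groups overlapped for the marker sum. Of the 8, 7 passed the filter, 0 were called in 8wk STZ against Control, beside 2.37% of all genes, and Cd209f had no read. Mast cell and basophil markers summed to 1.38 to 5.29 CPM in 8wk STZ, 1.53 to 3.18 CPM in 4wk STZ, against 1.25 to 3.11 CPM in Control, with 7 of 8 at 10 reads or fewer in every library. The 13 monocyte and neutrophil markers summed to 332.6 to 374.4 CPM in 8wk STZ, 258.3 to 369.3 CPM in 4wk STZ, against 343.0 to 465.9 CPM in Control. Nearly all of that sum was 1 gene, Csf3r, at means of 342, 304.7 and 375.8 CPM in 8wk STZ, 4wk STZ and Control. Of the 13, 7 were at 10 reads or fewer in every library, S100a8 and S100a9 among them. The part of these cells in the Lilrb4a values was not tested.

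**Figure D4:**
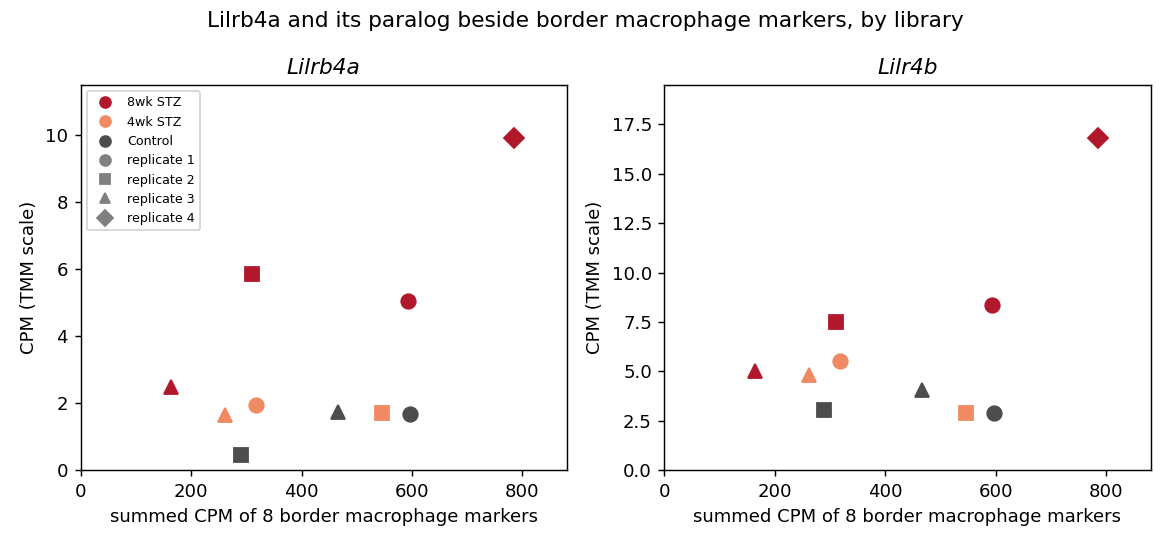
Level of Lilrb4a (left) and its paralog Lilr4b (right) in each library (y axis, CPM) beside the summed CPM of 8 border macrophage markers (x axis), coloured by group and shaped by replicate number. 8wk STZ 4 was highest on both axes (785.0 CPM of markers, 9.92 CPM of Lilrb4a), and the 3 groups overlap along the x axis.

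Of the 19 ligand genes, edgeR called 0 in any comparison. Of all genes it called 2.37% in 8wk STZ against Control, 0% in 4wk STZ against Control and 0.918% in 8wk STZ against 4wk STZ. In these 3 comparisons 4, 3 and 4 of the 19 had an unadjusted p below 0.05, where 15.7%, 9.75% and 13.7% of all genes did. Their median log2 fold change was -0.19 in 8wk STZ against Control and -0.20 in 4wk STZ against Control, and 6 of 19 were above 0 at 8 weeks. The most abundant were C1qb, a chain of the LAIR-1 ligand C1q, Selplg, which encodes the VISTA ligand PSGL-1, and Apoe, whose protein binds the human receptor LILRB4. C1qb averaged 10250 ± 985 CPM in 8wk STZ, 8575 ± 617 CPM in 4wk STZ, against 9012 ± 714 CPM in Control (SD, n = 4, 3 and 3). Selplg averaged 6353 ± 503 CPM in 8wk STZ, 6257 ± 961 CPM in 4wk STZ, against 7160 ± 465 CPM in Control (SD, n = 4, 3 and 3). These groups overlapped for both genes.

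Apoe stood at 14670, 7754, 5178 and 19380 CPM in 8wk STZ, at 4118, 5061 and 2431 CPM in 4wk STZ and at 4487, 1902 and 3783 CPM in Control. All 4 libraries of 8wk STZ were above the rest, and 8wk STZ 4 and 8wk STZ 3 were its highest and lowest, as for Lilrb4a. Apoe is also 1 of the 12 Müller glia and astrocyte markers, and their part in its level was not tested. Its log2 fold change at 8 weeks was 1.79 against Control and did not pass (adjusted p = 0.0747). Igsf11, which encodes the VISTA ligand VSIG3, was scarce, at 1.27, 1.32, 1.53 and 1.85 CPM in 8wk STZ, 1.495, 2.16 and 2.27 CPM in 4wk STZ and 3.74, 3.69 and 4.32 CPM in Control. All STZ libraries were below Control for Igsf11, whose log2 fold change at 8 weeks was -1.39 (adjusted p = 0.0759). Igsf11, Cd200, Cd47 and Tnfrsf14 are named here after their values were seen.

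The ligand genes of CD200R1, BTLA and SIRPα were not called either. Cd200 stood at 0.777, 0, 2.21 and 0.974 CPM in 8wk STZ, at 1.18, 4.97 and 0.124 CPM in 4wk STZ and at 1.34, 1.06 and 2.55 CPM in Control, and its groups overlapped. Tnfrsf14, the ligand of BTLA, averaged 17.6 ± 2.63 CPM in 8wk STZ, 16.2 ± 2.45 CPM in 4wk STZ, against 16.3 ± 2.84 CPM in Control (SD, n = 4, 3 and 3). Cd47, the ligand of SIRPα, averaged 197.2 ± 27.1 CPM in 8wk STZ, 237.5 ± 31.5 CPM in 4wk STZ, against 245.8 ± 30.6 CPM in Control (SD, n = 4, 3 and 3, adjusted p = 0.272 at 8 weeks and 0.959 at 4 weeks).

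Among 32 genes listed as related inhibitory receptors, 27 passed the filter and edgeR called 0 in any comparison, beside the same 2.37%, 0% and 0.918% of all genes. Not all of the list are inhibitory receptors: it also holds the ligand genes Cd274 and Pdcd1lg2, the lectin gene Lgals3 and Lilr4b. In the same comparisons 8, 1 and 4 had an unadjusted p below 0.05, beside 15.7%, 9.75% and 13.7% of all genes. Lilr4b, Pdcd1lg2 and Cd274 are among the 8. The median log2 fold change of the 27 was 0.13 in 8wk STZ against Control and -0.03 in 4wk STZ against Control. The most abundant were Cd84, a self-binding SLAM receptor, at 367 ± 21.0 CPM in 8wk STZ, 383 ± 33.1 CPM in 4wk STZ, against 367 ± 47.8 CPM in Control, and the inhibitory IgG receptor Fcgr2b, at 328 ± 39.4 CPM in 8wk STZ, 268 ± 41.1 CPM in 4wk STZ, against 295 ± 47.4 CPM in Control (SD, n = 4, 3 and 3). The MHC class II receptor Lag3 averaged 330 ± 32.9 CPM in 8wk STZ, 251 ± 61.4 CPM in 4wk STZ, against 291 ± 69.4 CPM in Control. The smallest adjusted p of the list was 0.056, for the SLAM receptor Slamf7 at 8 weeks, which stood at 10.9, 7.62, 5.21 and 14.7 CPM in 8wk STZ, at 5.79, 4.62 and 3.08 CPM in 4wk STZ and at 2.12, 3.96 and 2.39 CPM in Control. The sialic acid receptor Siglece averaged 133 ± 2.44 CPM in 8wk STZ, 133.5 ± 1.87 CPM in 4wk STZ, against 171 ± 21.3 CPM in Control, below Control in all 7 STZ libraries (adjusted p = 0.0692 in 8wk STZ and 0.314 in 4wk STZ against Control). Slamf7 and Siglece were picked after their values were seen.

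Of 22 activating counterparts and adaptors, 17 were in the table and 14 passed the filter. Of these edgeR called 0 in any comparison, beside the same 2.37%, 0% and 0.918% of all genes. In the same comparisons 1, 1 and 2 had an unadjusted p below 0.05, beside 15.7%, 9.75% and 13.7% of all genes. The median log2 fold change of the 14 was 0.37 in 8wk STZ against Control and 0.04 in 4wk STZ against Control. At 8 weeks 12 of 14 were above 0. Tyrobp, the DAP12 adaptor with which CD200R4 and TREM2 signal, averaged 1502 ± 230 CPM in 8wk STZ, 1170 ± 56.2 CPM in 4wk STZ, against 1105 ± 37.8 CPM in Control (SD, n = 4, 3 and 3). The 8wk STZ libraries lay above Control (log2 fold change 0.44, adjusted p = 0.069). Trem2, a lipid receptor of microglia, averaged 1714 ± 168 CPM in 8wk STZ, 1363 ± 182 CPM in 4wk STZ, against 1578 ± 171 CPM in Control. Fcer1g, the FcRγ adaptor used by the Pira receptors, averaged 1533 ± 190 CPM in 8wk STZ, 1750 ± 134 CPM in 4wk STZ, against 1749 ± 94.6 CPM in Control.

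Of 19 downstream effectors, all tested, edgeR called 0 in any comparison, beside the same 2.37%, 0% and 0.918% of all genes. In the same comparisons 5, 0 and 4 had an unadjusted p below 0.05, beside 15.7%, 9.75% and 13.7% of all genes. The median log2 fold change of the 19 was 0.17 in 8wk STZ against Control and 0.00 in 4wk STZ against Control. At 8 weeks 15 of 19 were above 0. Ptpn6, the phosphatase SHP-1, averaged 730 ± 29.4 CPM in 8wk STZ, 643 ± 31.6 CPM in 4wk STZ, against 610 ± 18.8 CPM in Control, without overlap between 8wk STZ and Control (log2 fold change 0.26, adjusted p = 0.0886). Inpp5d, the lipid phosphatase SHIP-1, averaged 573 ± 7.01 CPM in 8wk STZ, 627 ± 0.927 CPM in 4wk STZ, against 614 ± 20.3 CPM in Control, with all 8wk STZ libraries below those of both other groups (log2 fold change -0.10, adjusted p = 0.518 against Control). Lyn, a Src-family kinase that phosphorylates ITIMs, averaged 579 ± 26.5 CPM in 8wk STZ, 578 ± 38.0 CPM in 4wk STZ, against 611 ± 72.8 CPM in Control. Over all 18957 genes, the median log2 fold change was -0.01 in 8wk STZ and 0.00 in 4wk STZ against Control, beside which the medians of these lists are descriptions.

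**Figure D5:**
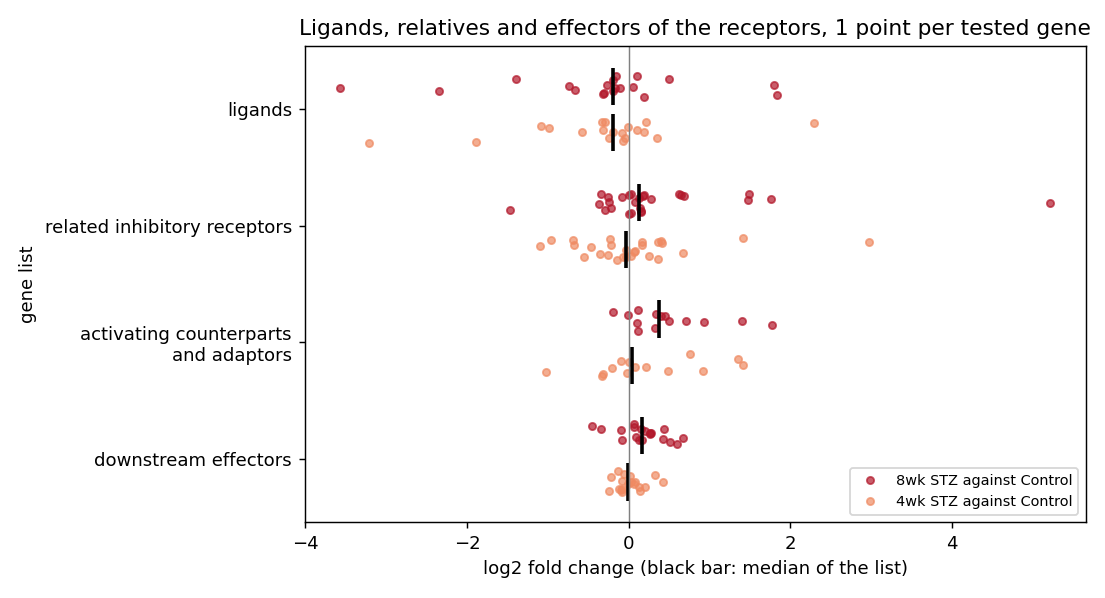
Log2 fold change (x axis) of each tested gene in 4 lists around the receptors, for 8wk STZ and for 4wk STZ, each against Control. Each point is 1 gene, jittered up and down within its row, and the black bar is the list's median. The list medians run from -0.19 (ligands) to 0.37 (activating counterparts and adaptors) at 8 weeks. No gene in the 4 lists was called, beside 2.37% of all genes at 8 weeks and 0% at 4 weeks. The point farthest to the right is Pdcd1lg2, a ligand gene held in the list of related inhibitory receptors, whose groups overlapped (adjusted p = 0.273).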

How the data were processed

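RNA of sorted retinal microglia was sequenced from 10 mice, 1 library per animal, and the labels' titles gave the groups. The counts used were deposited by the authors as whole raw numbers of reads for each gene and library. The authors' deposited table gives, per the file headers, the log2 fold change, mean log2 CPM, likelihood ratio score, p-value and FDR of each STZ group against Control for 14475 genes. Tools listed in the submitters' processing notes are STAR, featureCounts of Subread, Salmon, edgeR, limma and bcl2fastq, with the build GRCm38. Their roles, the annotation, the strand setting and the handling of reads with several matches are stated in no source used here, so reads of close paralogs can be split between them. Of the numeric columns, 1 (transcripts per gene) was not used.

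The 9 genes and all gene lists were chosen with earlier results of these data known. After 287 repeated entries were dropped, 55487 genes remained. Counts were TMM-scaled, filtered with filterByExpr and fitted with edgeR 4.0.16 (R 4.3.3), with 1 mean for each group of the 10 libraries, which leaves 7 residual degrees of freedom. Differences were tested by its robust quasi-likelihood F-test with Benjamini-Hochberg adjustment over 18957 genes, and those with an adjusted p under 0.05 are named calls. The biological coefficient of variation came to 0.564. The script was tested on simulated data. Libraries of a group differed by far more than sampling noise (chi-square per degree of freedom of at least 48.2). Levels are CPM on the TMM scale, divided by exonic length in kb where genes are compared. Coordinates, exons and shared 50-base stretches come from GENCODE vM21 (GRCm38), and promoters from RefSeq.

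All 9 members are named. Of each pathway list and of the genes within 500 kb of Btla or Cd200r4, called genes and otherwise the 3 most abundant are named, and exceptions are stated. The genes most like Btla and Cd200r4 have a mean log2 CPM of at least 2. Alternatives were other scalings, other filters, DESeq2 1.42.0, edgeR's likelihood ratio test, limma-voom 3.58.1, only the groups compared, a replicate block and leaving out libraries. The counts carry no molecular identifiers, and with 3 or 4 animals a group, tests see only large or steady differences.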

Additional observations from a re-analysis of the deposited data

How the results depend on the processing

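Of 567 log2 fold changes of the 9 genes recomputed under the alternatives, 547 kept their direction and side of the threshold. Genes called in 4wk STZ against Control were 12 with no filter, 314 with DESeq2 and 243 with edgeR's likelihood ratio test, against 0, and 0 to 1 with single libraries left out (1 without Control 2). At 8 weeks against Control they were 1451 with DESeq2, 1151 with the likelihood ratio test and 275 without Control 3 and 4wk STZ 3 together, against 449. They ranged from 206 to 462 with single libraries left out, and from 206 to 255 without any 1 library of 8wk STZ or Control. Between 8wk STZ and 4wk STZ they were 277 with no filter, 348 with a mean CPM of 1, 1004 with DESeq2, 749 with the likelihood ratio test, 100 with only these groups and 6 without Control 3 and 4wk STZ 3 together, against 174. Leaving out single libraries gave 13 (without 4wk STZ 3) to 118. Of the calls at 8 weeks against Control, 41% were higher with TMM, 66% with library totals and 30.9% with upper-quartile scaling, and against 4wk STZ 43.1%, 70.8% and 31.2%.

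Of the 7 tested receptors, 0 were called in any comparison when single libraries were left out. In 8wk STZ against Control DESeq2 called 2 (Lilrb4a and Vsir), the likelihood ratio test 1 (Lilrb4a), limma-voom 1 (Vsir) and the fit without Control 3 and 4wk STZ 3 together 1 (Pirb). In 8wk STZ against 4wk STZ DESeq2 called 1 (Lilrb4a, adjusted p = 0.0362). Directions turned only near 0. In 8wk STZ against 4wk STZ the log2 fold change became 0.029 for Vsir with library totals, and -0.026 for Lair1 and -0.031 for Havcr2 with upper-quartile scaling. Without Control 3 and 4wk STZ 3 together it became -0.046 for Cd200r1, -0.063 for Cd200r4 and -0.015 for Havcr2. With single libraries left out it ran from -0.065 to 0.247 for Cd200r4, from -0.109 to 0.01 for Vsir, from -0.009 to 0.071 for Lair1, from -0.026 to 0.143 for Havcr2 and from -0.045 to 0.468 for Cd200r1, and in 4wk STZ against Control from -0.025 to 0.408 for Pirb. The cause was not tested.

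Replicate numbers did not pair the libraries: deviations of same-numbered libraries correlated at -0.0297 to 0.0348 over 9 pairs, and 3 of 9 libraries correlated best with their own number. With the replicate block 44 genes were called in 8wk STZ against Control, 0 in 8wk STZ against 4wk STZ and 0 in 4wk STZ against Control, with 0 of the 7 receptors in each.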
